A study of Rattus norvegicus with 6 samples.

Results

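The genes described here are those of the proteasome, the cylindrical protease that breaks down ubiquitin-tagged proteins, in primary rat cardiomyocytes with and without progesterone. They are the protein-coding rows of the gene table whose symbol begins with Psm, a letter from a to g and a number, 49 genes of 22123 protein-coding symbols and 33565 rows in all. The members were set in groups by role: Psmb8, Psmb9, Psmb10, Psme1 and Psme2, the 5 genes known to be induced by interferon, the 3 constitutive catalytic subunits Psmb5, Psmb6 and Psmb7, and the 41 others. Psmc3ip matches the symbol rule but encodes a recombination cofactor and not a proteasome subunit, so it was left out of the sums over constitutive members. Cardiomyocytes came from the hearts of Sprague-Dawley rats on postnatal day 7 and were kept in a standard culture medium (Dulbecco's modified Eagle's) that held 10% fetal bovine serum. The control group of 3 samples received vehicle and the progesterone group of 3 samples received 100 nM progesterone, both for 24 h. The labels call the samples biological replicates without saying whether they came from separate animals or cultures, so the p-values speak of sample-to-sample spread that could be technical. In these bulk samples, fewer cells of a type and less RNA per cell cannot be told apart.

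The catalytic core of the proteasome, the 20S particle, is a stack of 2 outer alpha rings and 2 inner beta rings, and the beta1, beta2 and beta5 subunits carry the active sites. The 19S particle caps the core, recognises ubiquitin chains and unfolds substrates with its ring of ATPases. Interferon induces alternative catalytic subunits (beta1i, beta2i and beta5i, encoded by Psmb9, Psmb10 and Psmb8) that replace the constitutive ones in newly assembled particles and form the immunoproteasome, which favours peptides that fit MHC class I molecules. Interferon also induces PA28 alpha and beta (Psme1 and Psme2), a ring that opens the core without ubiquitin. Constitutive subunit genes are known to be controlled together by the transcription factor NRF1 (Nfe2l1) when proteasome activity is short.

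Promoters were searched for the letters of an interferon response element, an antioxidant response element and the CCAAT box. RefSeq promoter windows on GRCr8 (250 bases before to 50 after the gene's start) matched 44 of the 49 members by symbol, and the 5 without one were Psma7, Psmb11, Psmd6, Psmd12 and Psmd14. The core of the interferon-stimulated response element (ISRE), searched on both strands as GAAA, any 2 bases and GAAA again, was in the windows of 3 of the 5 inducible genes (Psmb8, Psmb10 and Psme2), in 4 of 39 other members (Psma4, Psmb3, Psmd7 and Psmg4) and in 3.92% of 33469 promoters in all. The stretches around the matches are shown because Psmb8, Psmb10 and Psme2 fell the most among members with a match, and capitals mark the ISRE core.
Psmb8: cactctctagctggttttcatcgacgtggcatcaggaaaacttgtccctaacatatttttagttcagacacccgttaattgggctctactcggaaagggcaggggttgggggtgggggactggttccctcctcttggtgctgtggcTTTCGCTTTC
Psmb10: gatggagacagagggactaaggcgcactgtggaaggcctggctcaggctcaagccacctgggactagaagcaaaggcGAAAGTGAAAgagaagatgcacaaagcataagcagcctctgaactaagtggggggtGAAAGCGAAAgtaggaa
Psme2: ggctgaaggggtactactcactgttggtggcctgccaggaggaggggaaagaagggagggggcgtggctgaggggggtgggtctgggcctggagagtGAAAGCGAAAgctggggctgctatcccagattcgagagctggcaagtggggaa
The Psmb8 stretch is chr20:4657026-4657181, the Psmb10 stretch chr19:50743293-50743442 and the Psme2 stretch chr15:33052752-33052901, all on the minus strand of GRCr8. The Psmb8 match covers the start itself, from 4 bases before to 5 bases after it. Psmb10 holds a pair of matches, whose first bases lie 73 and 17 bases before the start, and that of Psme2 begins 53 bases before it. The core of each match nearest the start is the same in Psmb10, Psme2 and, on the other strand, Psmb8.

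The windows of Psmb9 and Psme1 held no such match. Psmb9 and Tap1, the gene of a transporter subunit that carries proteasome products into the endoplasmic reticulum, are read away from each other, and their starts lie 457 bases apart in GRCr8. The window of Tap1 held 1 match, shown in capitals beside the stretch before Psmb9.
Tap1: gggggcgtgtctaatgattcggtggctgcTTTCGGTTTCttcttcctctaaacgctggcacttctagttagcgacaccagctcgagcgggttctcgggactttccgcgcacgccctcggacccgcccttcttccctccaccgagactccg
Psmb9: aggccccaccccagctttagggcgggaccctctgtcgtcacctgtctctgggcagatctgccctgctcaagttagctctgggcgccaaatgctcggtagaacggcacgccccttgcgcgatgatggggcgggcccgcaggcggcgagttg
The Tap1 stretch is chr20:4668544-4668693 on the minus strand and the Psmb9 stretch chr20:4668850-4668999 on the plus strand. The match begins 121 bases before the start of Tap1. Its end nearest Psmb9 lies 336 bases before the start of Psmb9, outside the window searched for Psmb9. The antioxidant response element that NRF1 and NRF2 bind was searched as TGACNNNGC. It was in 8 of 44 member windows (18.2%), none of them of an inducible gene, against 12.1% of all promoters, and Psmb5 is shown as a constitutive catalytic gene with 1 match, 60 bases before its start.
Psmb5: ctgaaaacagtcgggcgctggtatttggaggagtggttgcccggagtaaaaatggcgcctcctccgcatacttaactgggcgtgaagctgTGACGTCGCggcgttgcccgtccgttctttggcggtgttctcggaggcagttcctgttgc
This stretch is chr15:32047380-32047529 on the minus strand. The CCAAT box was in 22 member windows (50%), against 37.5% of all promoters. In the member windows 1 pair of matches of different motifs overlapped, an antioxidant element and a CCAAT box in Psmb2. A match is a stretch of letters and was not tested as a binding site.

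The libraries held 21156793 to 25376220 counts. The quasi-likelihood test of edgeR, run on 15075 genes with a threshold of 0.05 on the adjusted p, called 63% of them, 31.2% higher and 31.8% lower with progesterone, so that a call by itself was common. With upper quartile scaling 60.1% of the changed genes were higher, against 49.6% with TMM scaling. Cardiomyocyte markers (11 of 12 in the table, none at 0) had a summed FPKM of 7253 to 7590 in the controls and 8179 to 9556 with progesterone, and 5 of 11 tested were higher and 4 lower. Without Actc1, the cardiac actin, chosen because its FPKM rose the most, the other 10 summed to 4258 to 4431 and 3611 to 3997, so the direction of the sum rests on that gene. Fibroblast markers were read at 6279 to 6738 and 8269 to 8867, with 5 of 9 tested higher and 3 lower. Without Col3a1, a collagen chosen in the same way, the other 8 summed to 4967 to 5368 and 5515 to 5889. Smooth muscle and pericyte markers had sums of 976 to 1253 and 2862 to 3230, with 9 of 10 tested higher and 1 lower. Without the gene that rose the most, the other 9 summed to 557 to 671 and 1110 to 1232. Endothelial markers had sums of 48.1 to 62 and 33.4 to 45.7, with 2 of 8 tested higher and 3 lower. Leukocytes, which express immunoproteasome genes without induction, had markers (13 of 15 in the table, Cd3e at 0) with a summed FPKM of 45.4 to 66.9 in the controls and 173 to 189 with progesterone, and 8 of 10 tested were higher and 1 lower. Without Lyz2, chosen in the same way as Actc1, the other 12 summed to 41.2 to 57.8 and 84.8 to 92.3. The part of these cell types in the results on proteasome genes was not tested.

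The inducible catalytic subunits were the members that differed most. Their mean FPKM ran from 56.6 to 118 in the controls, where that of Psmb5, Psmb6 and Psmb7 ran from 49.2 to 131. With progesterone the inducible subunits were read at means of 0.807 to 13.6 FPKM, while Psmb5, Psmb6 and Psmb7 did not pass the test. Psmb9 (beta1i, chromosome 20, 3973420 to 3978845 in the rat build of the table, which is not named) had FPKM values, which are counts scaled by gene length and library total, of 115, 110 and 107 in the controls and 1.43, 1.32 and 1.44 with progesterone. Every progesterone library was far below every control library, and Psmb9 was 78.9-fold lower (log2 fold change -6.30 ± 0.07, SE, adjusted p = 3.8e-19, edgeR). Psmb8 (beta5i, chromosome 20, 3990613 to 3993769) was read at 58.1, 55.2 and 56.5 FPKM in the controls and at 0.845, 0.929 and 0.646 FPKM with progesterone. It was 70.2-fold lower (-6.13 ± 0.08, adjusted p = 3.9e-18), and its groups lay as far apart as those of Psmb9. Psmb10 (beta2i, chromosome 19, 37909546 to 37912027) was read at 122, 119 and 111 FPKM and at 14, 14.1 and 12.6 FPKM, which made it 8.66-fold lower (-3.11 ± 0.06, adjusted p = 3.8e-16). Psmb10 thus kept a clear level with progesterone, unlike the other two. Among the 15075 log2 fold changes, Psmb9 ranked 86 from the lowest, Psmb8 88 and Psmb10 307, and at least 8-fold lower calls made up 2.1% of the genes tested.

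The difference among the inducible subunits was compared within each library. The FPKM ratio of Psmb9 to Psmb10 was 0.944 ± 0.0218 (SD, n = 3) in the controls and 0.104 ± 0.0102 with progesterone, and that of Psmb8 to Psmb10 0.482 ± 0.0239 and 0.0592 ± 0.00752. Neither ratio overlapped between the groups (exact two-sided permutation p = 0.1 for each, 0.15 adjusted over 3 ratios), and 0.1 is the smallest p that 3 against 3 allow. The ratio of Psmb8 to Psmb9, the neighbours on chromosome 20, was 0.511 ± 0.0137 and 0.58 ± 0.128 and overlapped (exact permutation p = 0.5). These ratios were chosen after the values were seen.

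The constitutive catalytic subunits had nearly the same level in both groups. Psmb5 (beta5) was read at 118, 110 and 105 FPKM in the controls and at 111, 109 and 105 FPKM with progesterone, with a log2 fold change of -0.03 ± 0.05 (adjusted p = 0.59). Psmb6 (beta1) had 136, 131 and 128 FPKM and 120, 133 and 110 FPKM (-0.11 ± 0.06, adjusted p = 0.12). Psmb7 (beta2) had 50.7, 45.5 and 51.4 FPKM and 41.5, 46.7 and 49.3 FPKM (-0.10 ± 0.07, adjusted p = 0.21). The groups of all 3 overlapped. The call of Psmb6 depended on single settings, since it passed as lower without progesterone replicate 2 (-0.18, adjusted p = 0.0066) and without a filter (-0.12, adjusted p = 0.026).

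**Figure D1:**
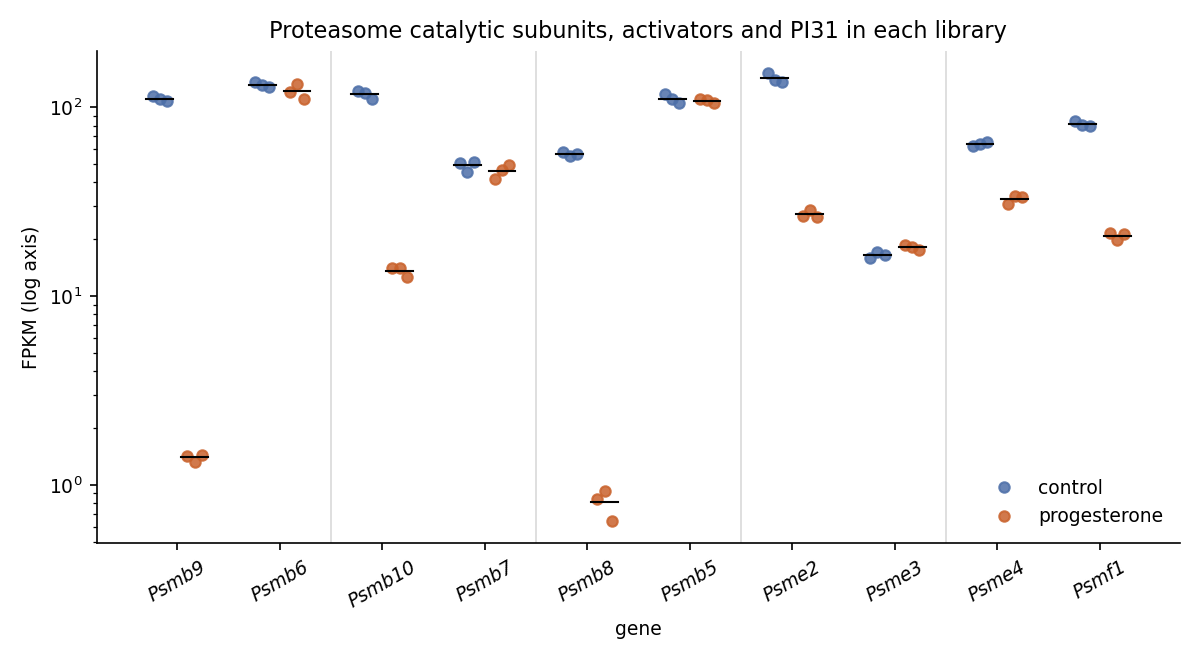
FPKM (vertical log axis) of 10 proteasome genes in each of the 3 control (blue) and 3 progesterone (orange) libraries, with a bar at each mean. Psmb9, Psmb8, Psmb10 and Psme2 lie far lower with progesterone, Psmf1 and Psme4 less so, and Psmb6, Psmb7 and Psmb5 overlap between the groups.

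Set against the constitutive subunit of the same active site, each inducible subunit had a smaller share with progesterone. At the beta1 site Psmb9 made up 45.8% ± 0.12 (SD, n = 3) of the summed FPKM of Psmb9 and Psmb6 in the controls and 1.15% ± 0.155 with progesterone. At the beta5 site the share of Psmb8 was 33.8% ± 0.998 and 0.736% ± 0.118. At the beta2 site Psmb10 was the more abundant transcript in the controls, with 70.5% ± 2.03, and had 22.9% ± 2.45 with progesterone. In none of the 3 pairs did the groups overlap. The log2 ratios of inducible to constitutive subunit differed by -6.19 for beta1, -6.12 for beta5 and -3.01 for beta2 (exact two-sided permutation p = 0.1 for each, 0.125 adjusted over the 5 planned pairs, with 0.1 the smallest p possible). The members were chosen with earlier results of these data known, so the p-values of the 5 pairs are no independent support. Over the 6 catalytic genes together, the inducible ones made up 49.4% ± 0.386 of the summed FPKM in the controls and 5.41% ± 0.196 with progesterone. The sum of the 6 was 576 ± 20.4 FPKM in the controls and 291 ± 13 FPKM with progesterone, of which the constitutive genes made up 291 ± 10.8 and 276 ± 12.3 FPKM. Shares between genes depend on the annotated gene lengths, which were 717 bases for Psmb6 and 2066 for Psmb8. They are shares of mRNA, and the make-up of assembled particles was not measured.

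**Figure D2:**
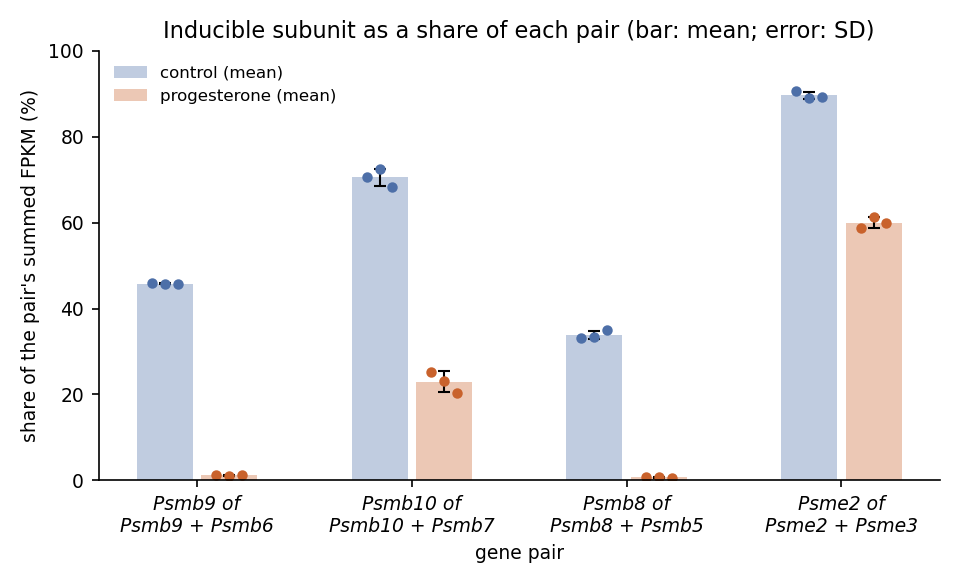
Share of the inducible gene in the summed FPKM of each pair (vertical axis, percent), with a bar for the mean, an error bar for the SD and a point for each of the 3 libraries a group. The Psmb9 and Psmb8 shares drop to 1.15% and 0.736% with progesterone, and the Psmb10 share to 22.9%.

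Of the activators of the core, the interferon-induced PA28 beta fell. Psme2 (PA28 beta, chromosome 15, 34265557 to 34269851) was read at 152, 139 and 137 FPKM in the controls and at 26.5, 28.6 and 26.4 FPKM with progesterone. It fell 5.24-fold (-2.39 ± 0.05, adjusted p = 2.9e-15) with groups far apart. Psme3, which encodes PA28 gamma, a nuclear activator that interferon is not known to induce, was read at 15.9, 17.1 and 16.6 FPKM and at 18.6, 18.1 and 17.6 FPKM. It was called higher (0.13 ± 0.05, adjusted p = 0.04), a call that was lost with DESeq2 (adjusted p = 0.13), with library size scaling (0.07) and without a filter (0.074). It was lost too without control replicate 1 (0.15) or 3 (0.068) and without progesterone replicate 1 (0.11) or 2 (0.066). Psme2 made up 89.6% ± 0.823 of the summed FPKM of Psme2 and Psme3 in the controls and 60% ± 1.24 with progesterone, a log2 ratio lower by 2.52 (exact permutation p = 0.1, 0.125 adjusted over 5 pairs).

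Psme1, which encodes PA28 alpha, the partner of PA28 beta in the same ring, was almost unread in both groups. Its row had 7, 2 and 2 counts in the controls and 2, 5 and 2 counts with progesterone, and it was not tested. The ratio of control to progesterone counts per library total was 1.13 (95% exact binomial interval 0.425 to 3.08, which covers counting error only), and its log2 ratio to Psme3 differed by -0.17 between the groups (exact permutation p = 0.6). The row of Psme1 (chromosome 15, 34256071 to 34258947) shares 2574 bases with that of Emc9, which lies on the opposite strand and fell (-1.65 ± 0.18, adjusted p = 9.8e-07). A separate row described as a Psme1 pseudogene (AABR07028009.1) had 17, 21 and 22 counts in the controls and 7, 5 and 3 counts with progesterone, and was called lower (-1.85, adjusted p = 0.0014). The way reads were divided between such rows, and any use of strand, were not given in the sources used here. Its row therefore does not show how much Psme1 mRNA the cells held. RefSeq lists at least 1 pseudogene for 19 of the 49 members, 48 pseudogenes in all, so that reads of those members could be split with copies. Psmb8, Psmb9, Psmb10 and Psmb5 have none there. Psme2 has 3, Psme3 has 4, and Psmb6 and Psmb7, used below or above as partners of inducible subunits, have 2 each. Among other core subunits, Psmb3 has 8 and Psma6 has 5.

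Psmf1 and Psme4 were the constitutive members that fell the most. Psmf1, which encodes PI31, a protein that inhibits the core in vitro, was read at 84.5, 80.5 and 79.1 FPKM in the controls and at 21.7, 19.8 and 21.2 FPKM with progesterone. It fell 3.89-fold (-1.96 ± 0.05, adjusted p = 2e-14). Psme4, which encodes the large activator PA200, was read at 62.4, 63.5 and 65.7 FPKM and at 30.7, 34 and 33.3 FPKM, and fell 1.95-fold (-0.97 ± 0.05, adjusted p = 7.3e-11). In both genes each progesterone library was below each control library, as in 34.8% of all genes tested. Relative to the geometric mean FPKM of the 14 constitutive core subunits, the level of Psmf1 was 0.707 ± 0.0059 in the controls and 0.219 ± 0.0165 with progesterone, and that of Psme4 0.556 ± 0.0372 and 0.341 ± 0.0139. Psmb8, Psmb9, Psmb10, Psme2 and Psmf1 were the members lower by at least 2-fold, a class that held 9.31% of the genes tested, and no member was higher by as much, against 7.14% of the genes tested.

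Over all 46 members that passed the filter on low counts, 26 were lower and 5 higher, beside 31.8% and 31.2% of all genes tested. The 5 were Psmd5, Psmg1, Psmg3, Psme3 and Psmc3ip, the last of which is no subunit. Among the 41 tested constitutive members 22 were lower and 4 higher. The CPM groups did not overlap in 25 members that were lower and 5 that were higher, where 34.8% and 33.8% of all genes tested did so. The median log2 fold change was -0.20, against 0.00 over all genes tested. With upper quartile scaling 21 were lower and 11 higher, where 60.1% of the 9722 genes changed in all were higher. Called higher were 3 members with DESeq2 or without control replicate 2 or 3 or progesterone replicate 2. The others not tested besides Psme1 were Psma8, a testis subunit, with 0 control counts and 1 progesterone count in all, and Psmb11, the catalytic subunit of the thymus, with 6 and 8.

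The constitutive core fell by a small amount, its catalytic subunits apart. All 7 tested alpha subunits, Psma1 to Psma7, and all 4 non-catalytic beta subunits, Psmb1 to Psmb4, were lower, with log2 fold changes of -0.43 to -0.20 and groups that did not overlap. Of all genes tested, 31.8% were called lower, and 34.8% were lower with groups that did not overlap. Psma6 had FPKM values of 128, 125 and 119 in the controls and of 89.1, 96.7 and 89.5 with progesterone, and fell 1.35-fold (-0.43 ± 0.05, adjusted p = 8.5e-07). Psmb2 had 149, 139 and 135 FPKM and 100, 107 and 107 FPKM (-0.42 ± 0.05, adjusted p = 1.6e-06). At the other end, Psma2 had 153, 147 and 151 FPKM and 129, 134 and 130 FPKM and fell 1.15-fold (-0.20 ± 0.04, adjusted p = 6e-04). Psma4 fell by the same size (-0.20 ± 0.05, adjusted p = 0.0028), but not with upper quartile scaling (-0.10, adjusted p = 0.085). The geometric mean FPKM of Psmb5, Psmb6 and Psmb7 was 0.726 ± 0.0178 of that of the other 11 core subunits in the controls and 0.851 ± 0.00796 with progesterone, a comparison chosen after the values were seen and not tested.

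In the 19S cap 7 of 17 subunits fell and none rose, where 31.8% of all genes tested were lower and 31.2% higher, so the share lower is near that of all genes. Of the 6 ATPases, Psmc1, Psmc2 and Psmc6 fell, and Psmc3, Psmc4 and Psmc5 did not pass. Psmc2 was read at 116, 110 and 110 FPKM in the controls and at 85.5, 83.9 and 81.9 FPKM with progesterone (-0.42 ± 0.04, adjusted p = 4e-07). Psmc3, in the same ring, had 132, 124 and 120 FPKM and 125, 125 and 127 FPKM (0.01 ± 0.04, adjusted p = 0.92). Of the 11 other cap subunits 4 fell and none rose. They were Psmd4, a ubiquitin receptor (-0.25 ± 0.04), Psmd7 (-0.21 ± 0.04), Psmd11 (-0.19 ± 0.04) and Psmd12 (-0.17 ± 0.05, adjusted p = 0.011). The call of Psmd12 was lost without control replicate 1 (adjusted p = 0.061) or progesterone replicate 3 (0.059) and with upper quartile scaling (0.23), which also ended that of Psmd11 (0.06). Psmd2 and Psmd1, the largest cap subunits, had log2 fold changes of 0.06 ± 0.04 and 0.02 ± 0.04, and Psmd14, the deubiquitinase of the lid, of 0.03 ± 0.05.

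The cap and the core were set side by side within each library. The geometric mean FPKM of the 14 constitutive core subunits was 1.47, 1.42 and 1.42 times that of the 17 cap subunits in the controls and 1.27, 1.3 and 1.28 times with progesterone. The groups did not overlap, and the difference was not tested because the lists were chosen with results known. The median log2 fold change was -0.29 for the core and -0.07 for the cap. With upper quartile scaling the core had 10 lower and none higher (median -0.19), while the cap had 5 lower and 5 higher (Psmd1, Psmd2, Psmd3, Psmd6 and Psmd13) and a median of 0.02. The CPM (counts scaled to library size by TMM) of the 43 constitutive members summed to 5441 ± 150 in the controls and 4662 ± 98.5 with progesterone, a log2 difference of -0.22 that was -0.13 with upper quartile scaling. Without Psme4 and Psmf1, left out after their values were seen, the other 41 summed to 4871 ± 158 and 4399 ± 92.9, a log2 difference of -0.15.

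Assembly chaperones moved both ways. Psmg1, which pairs with Psmg2 to begin the alpha ring, rose from 30.2, 28.5 and 28.4 FPKM to 35.4, 36.9 and 35.4 FPKM (0.31 ± 0.06, adjusted p = 3.2e-04). Psmg2 went the other way, from 20.4, 19.5 and 19.9 FPKM to 17.9, 17.2 and 17 FPKM (-0.20 ± 0.07, adjusted p = 0.018). The second pair, Psmg3 and Psmg4, had log2 fold changes of 0.20 ± 0.07 (adjusted p = 0.023) and -0.10 ± 0.10 (adjusted p = 0.38). Of the chaperones of the ATPase ring, Psmd5 rose (0.20 ± 0.07, adjusted p = 0.014), Psmd9 did not pass (0.18 ± 0.11, adjusted p = 0.16) and Psmd10 was lower (-0.75 ± 0.29, adjusted p = 0.035). Psmd10, with 28 to 47 counts in the controls and 13 to 23 with progesterone, was the thinnest member tested. With DESeq2 the adjusted p was 0.082 for Psmg2, 0.093 for Psmg3 and 0.13 for Psmd10. Upper quartile scaling ended the calls of Psmg2 (0.2) and Psmd10 (0.06) and added one for Psmd9 (0.28, adjusted p = 0.041), which passed as higher without a filter too (0.17, adjusted p = 0.019). Without progesterone replicate 3 Psmd9 passed as higher (0.30, adjusted p = 0.0022), and the calls of Psmg2 (0.058), Psmg3 (0.11) and Psmd10 (0.055) were lost. Psmg3 lost its call without control replicate 2 (0.063) or 3 (0.055), Psmd5 without control replicate 2 (0.094) or progesterone replicate 2 (0.067) and Psmg2 without control replicate 1 (0.051). Psmd10 lost it as well without control replicate 1 (0.15) or 2 (0.065) or progesterone replicate 1 (0.14). Psmc3ip, the gene that is no subunit, rose (0.38 ± 0.09, adjusted p = 0.0022).

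**Figure D3:**
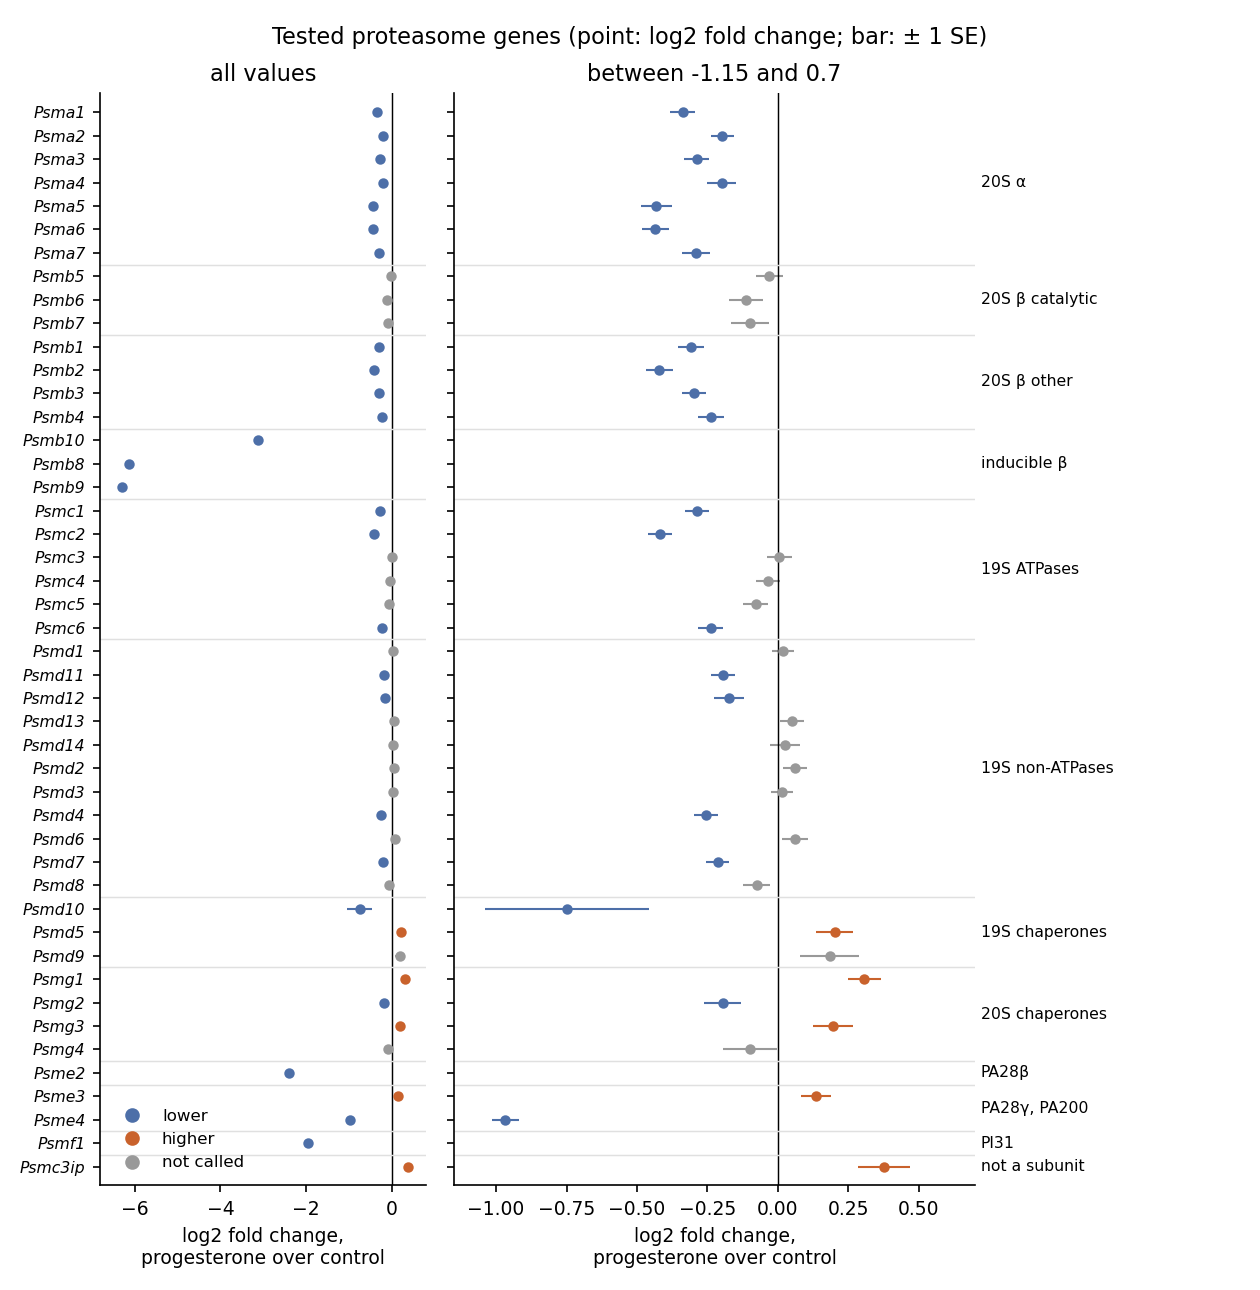
Log2 fold change with progesterone (horizontal axis) of the 46 tested members, grouped by role, with bars of 1 SE. The left panel spans all values and the right panel enlarges those near 0, where the 11 core subunits outside the constitutive catalytic group lie between -0.43 and -0.20 and Psmb5, Psmb6 and Psmb7 are not called.

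The genes beside the inducible members were read from the table's coordinates. Tap1, which starts 190 bases from Psmb9 on the opposite strand, fell with it (-4.84 ± 0.05, adjusted p = 5.9e-19), and so did Tap2, the other transporter subunit (-3.54 ± 0.30, adjusted p = 6.4e-07). Tap1, Psmb8 and Tap2 were the other genes within 20 kb of Psmb9, and all were lower by more than 8-fold. Calls at least 8-fold lower made up 2.1% of all genes tested. Around Psme2, Irf9, a subunit of the interferon-activated factor ISGF3, fell by 2.90 on the log2 scale. Rnf31, whose start is 797 bases from that of Psme2, fell by 0.68 on the log2 scale. Emc9 and Fitm1, on the other side of Psme2, had log2 fold changes of -1.65 and -1.45, both called lower. Of all genes tested, 31.8% were called lower, and 9.31% were lower by at least 2-fold. Around Psmb10, no tested neighbour within 20 kb was called lower. Lcat, 1309 bases away, was higher (0.98 ± 0.16, adjusted p = 7.1e-05). Slc12a4 (0.01 ± 0.05), Pskh1 (-0.15 ± 0.06, adjusted p = 0.052) and Ctrl (0.23 ± 0.38) did not pass. The groups of Pskh1 did not overlap and were lower with progesterone, as in 34.8% of all genes tested. Ctrl had only 11 to 29 counts per library.

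**Figure D4:**
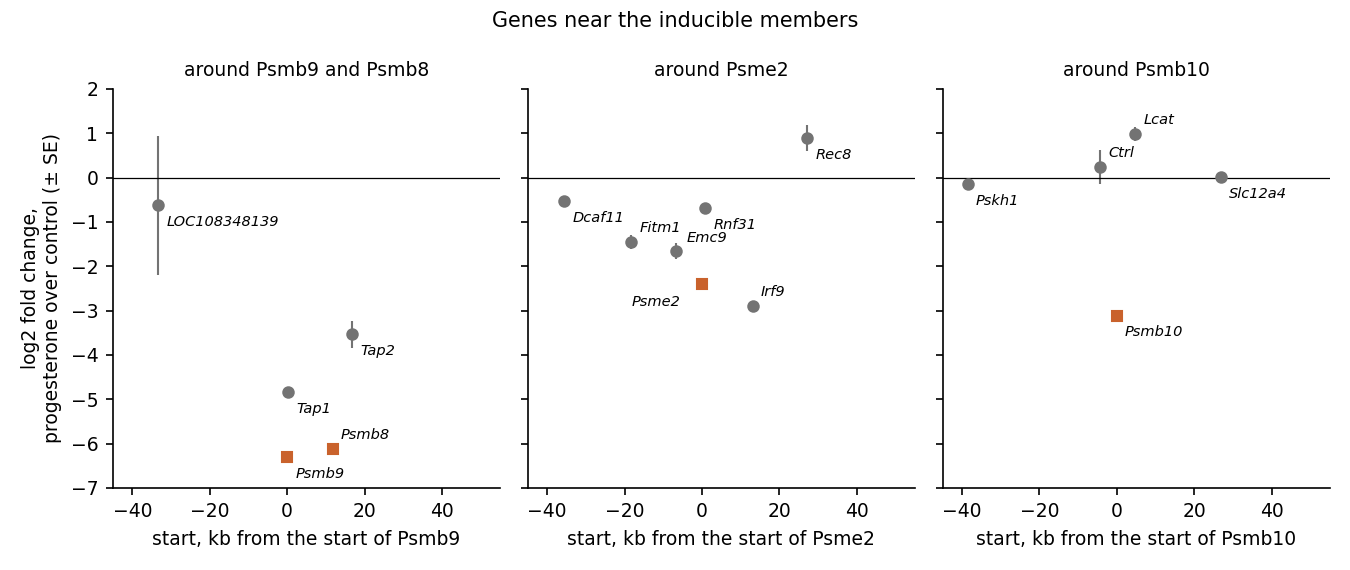
Log2 fold change with progesterone (vertical axis, bars of 1 SE) against the distance in kb of each tested gene's start from that of Psmb9, Psme2 or Psmb10. Orange squares are inducible members and grey circles other genes; Tap1 and Tap2 lie near Psmb9 and Psmb8 with log2 fold changes of -4.84 and -3.54, and the neighbours of Psmb10 lie near or above 0.

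Genes of MHC class I peptide supply and of interferon signalling were mostly lower. Of 11 genes of MHC class I peptide supply 10 fell and none rose (median -3.54), beside the 31.8% of all genes tested that were lower, and 8 were at least 2-fold lower, beside 9.31%. B2m, the light chain of class I molecules, fell from 2257 ± 88.9 to 150 ± 10.2 FPKM (SD, n = 3), and Tapbp, tapasin, from 183 ± 4.86 to 13.3 ± 0.412 FPKM. Nlrc5, the class I transactivator, fell by 6.86 on the log2 scale. All 12 genes of interferon signalling to these promoters were lower (median -1.36), 6 of them by at least 2-fold, beside the same 31.8% and 9.31%. Stat2 fell from 174 ± 2.33 to 8.06 ± 0.663 FPKM, and Irf1, a factor that binds the ISRE, from 55.1 ± 1.23 to 11.3 ± 0.451 FPKM. Many genes of both lists are interferon-induced themselves, and with the inducible members they share control samples and libraries.

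Genes of constitutive proteasome control and partners of the proteasome were called in both directions, in lists of few genes and beside 31.8% lower and 31.2% higher among all genes tested. In the NRF1 list 5 of 10 genes were lower and 1 higher (median -0.09). Nfe2l1 itself fell from 107 ± 2.97 to 70.4 ± 1.53 FPKM (-0.60 ± 0.04, adjusted p = 4.7e-09). Maff, a small partner of such factors, fell by 1.75 on the log2 scale, and Nfe2l2, which encodes NRF2, had a log2 fold change of -0.14 ± 0.04 (adjusted p = 0.006). Of 15 tested proteasome-associated genes 6 were higher and 4 lower (median 0.05), shares near those of all genes. Uchl5, a deubiquitinase of the cap, rose (0.68 ± 0.08), and Ubqln2, which shuttles ubiquitinated proteins, fell (-0.92 ± 0.05). Of 6 ubiquitin and E1 enzyme genes 4 were lower and 1 higher. Ubb, a polyubiquitin gene, fell from 803 ± 39 to 524 ± 22 FPKM.

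**Figure D5:**
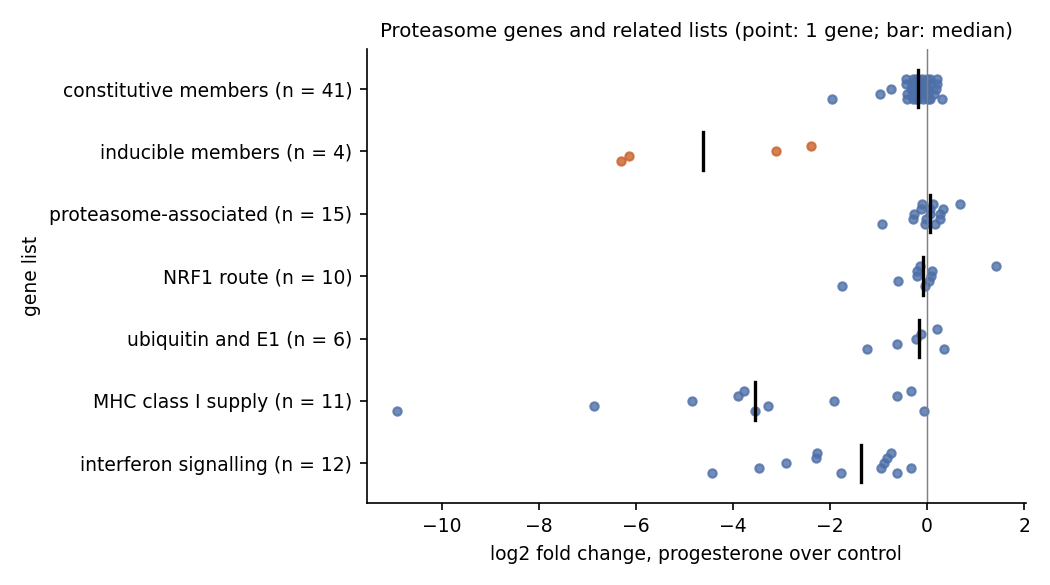
Log2 fold change with progesterone (horizontal axis) of the tested constitutive and inducible members and of 5 related gene lists, with a point for each gene and a bar at the median. The medians of the inducible members, of MHC class I supply and of interferon signalling are -4.62, -3.54 and -1.36. Those of the other lists run from -0.19 (constitutive members) to 0.05 (proteasome-associated genes).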

How the data were processed

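RNA-seq libraries (TruSeq kit on enriched mRNA, per the labels' protocols) were made from 3 control and 3 progesterone samples, grouped by title. Bowtie 0.12.2 and a mouse build, mm8, are listed in the submitters' processing notes, while gene identifiers are those of rat in Ensembl. Rat build, counter and strand setting were not given in the sources used here. For each gene the authors deposited a raw count and an FPKM value per library. Promoter windows are RefSeq's on GRCr8, which is not the build of the table.

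The main test on counts was edgeR 4.0.16 (R 4.3.3), with TMM scaling, robust glmQLFit and glmQLFTest, after filterByExpr at its minimum count of 10 and minimum total of 15, with Benjamini-Hochberg adjustment over all 15075 genes tested. The SE was derived from the F statistic. Ratios used FPKM within a library with exact permutation tests. A planned permutation test of the summed CPM is not reported, since the members were chosen with results known. Members, lists and motifs were chosen with earlier results of these data known. All members could be named, and of each related list the 4 tested genes with the smallest adjusted p, the neighbours within 20 kb of the inducible members, and Tap1 and Irf1; some genes that this rule names, and 1 motif searched, are not reported here. As alternatives, scaling was by RLE, upper quartile or library size, with other filters, each replicate left out, a block for the replicate number, DESeq2 1.42.0, limma 3.58.1 on log2(FPKM + 1) and log2(FPKM + 0.1), and for ratios counts per kilobase and added pseudocounts.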

Additional observations from a re-analysis of the deposited data

How the results depend on the processing

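Of the 46 tested members, 25 kept their direction and their side of the threshold under all 15 alternatives, Psmb8, Psmb9, Psmb10, Psme2, Psme4 and Psmf1 among them. Called lower were 26 members (23 to 27 with a replicate left out) and called higher 5 (3 to 5), or 11 with upper quartile scaling and 3 with DESeq2. In the main test 31.8% of all genes tested were lower and 31.2% higher. Upper quartile scaling called 9722 genes in all, 60.1% of them higher. The summed CPM of constitutive members was lower by 0.22 on the log2 scale, a difference of -0.13 with upper quartile scaling and, in an alternative chosen after seeing the data, of -0.15 without Psme4 and Psmf1. Adding 1 to each FPKM moved the log2 ratio of Psmb9 to Psmb6 from -6.19 to -5.43 and that of Psmb8 to Psmb5 from -6.12 to -4.97, since the added value is as large as the progesterone levels. With a replicate left out the ratio of Psme1 to Psme3, which rests on 20 counts in all, ran from -0.63 to 0.42, with 0.05 and 0.07 without progesterone replicate 1 or 3.

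Members that did not pass changed sign under some settings. With upper quartile scaling the log2 fold changes were 0.065 for Psmb5, 0.060 for Psmc4, 0.017 for Psmc5 and 0.022 for Psmd8. Psmc3 was at -0.0089 with library size scaling and at -0.0044 without a filter. With a replicate left out Psmb5 ran from -0.071 to 0.0090, Psmc3 from -0.028 to 0.041 and Psmd14 from -0.026 to 0.066.

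Same-numbered libraries deviated together only weakly (correlations of 0.022 to 0.087 over genes), and control replicate 3 correlated best with progesterone replicate 2, so the numbers were not taken as pairs. With the replicate number as a block 25 members were lower and 5 higher, and 9508 genes changed in all against 9497; the call of Psmd10 was lost (adjusted p = 0.053). The mean same-number difference of the log2 ratio of Psmb9 to Psmb6 was -6.19 (exact sign-flip p = 0.25, the smallest that 3 pairs allow).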
